A study of Mus musculus with 6 samples.

Results

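Pcdhga1, Pcdhga2, Pcdhga3, Pcdhga4, Pcdhga5 and Pcdhga6 are the first gamma A genes of the gamma protocadherin cluster, and their expression was compared between neural stem cells without Smchd1 and wild type cells. The 6 genes were taken by their Entrez identifiers from the 27179 gene records of the deposited count tables, and every one was found and passed the filter on low counts. Their levels were low, and in null cells they lay between 0.87 and 1.43 times the wild type level. None of the 6 passed the test across all genes. Pcdhga1, Pcdhga3 and Pcdhga5 had null and wild type libraries that did not overlap, each higher in null. Among all tested genes, 22% had groups that did not overlap in either direction. Pcdhga2 was the member with a lower mean in null. The number of calls depended on wild type replicate 3: without it 3 members were called higher, in a fit where 19.7% of all tested genes were called higher and 19.4% lower.

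The study sequenced total RNA from male mouse neural stem cells of strain C57BL/6 x FVB/N, derived from embryonic brain at E14.5. The 3 Smchd1 null libraries are from cells of genotype Smchd1MommeD1/MommeD1, in which both copies of Smchd1 hold the MommeD1 mutation. The 3 wild type libraries are from cells without it. Cultures of both genotypes grew on laminin in medium with EGF and bFGF at 20 ng/ml each. The labels do not say whether the replicates came from separate embryos, so p-values measure the spread between these libraries, which may be technical.

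Clustered protocadherins are cadherin-like adhesion proteins of the cell surface that neurons use to tell their own processes from those of other cells. In the gamma cluster each gene has its own promoter and a large first exon, which encodes the extracellular cadherin repeats, the membrane span and a short cytoplasmic stretch. That exon is spliced to small last exons used by all genes of the cluster, which encode a common cytoplasmic end. Promoter choice depends on CTCF and cohesin, and DNA methylation of a promoter goes with its silence. Gamma protocadherins are known in mice for the survival of spinal interneurons, for self-avoidance of dendrites and for dendrite branching. SMCHD1, an SMC-like protein bound to chromatin, keeps the inactive X chromosome silent in females and also acts at imprinted and clustered genes on autosomes.

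Smchd1, the targeted gene, had 27.9 to 31.1 CPM (counts per M counts of a library, with library sizes scaled for composition by TMM) in the null libraries, against 232 to 271 CPM in the wild type libraries, and its log2 fold change was -3.10 ± 0.08 (SE; edgeR adjusted p = 1.09e-06). Wild type replicate 3 stood apart. The 6 records that exceed 1% of any library made up 58.3% of that library, while the null libraries had 8.28% to 11.7% and wild type replicates 1 and 2 had 7.31% and 5.84% in them. After TMM scaling it counted as 10.1 M, while the other 5 libraries counted as 21.3 to 25.8 M. Sample names also split the series, since the 3 null libraries and wild type replicate 3 carry the numbers 11 to 14, and wild type replicates 1 and 2 carry numbers above 100. What those numbers stand for is not given.

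Cell type markers were looked at through fixed lists. Neural stem cell genes such as Nes and Sox2 summed to between 5918 and 6072 CPM in null and between 5993 and 6285 CPM in wild type, with 0 of 12 called by edgeR and 1 at an unadjusted p under 0.05. Neuronal markers summed to 1478 to 1515 CPM in null and 1581 to 1609 CPM in wild type, and 1 of 11 tested, Nefl, rose (2.56 ± 0.52 CPM in null and 0.72 ± 0.18 CPM in wild type, SD, n = 3 each), with 3 at an unadjusted p under 0.05. Nefm was also higher in null without passing, at 5.26 ± 0.39 CPM in null and 3.24 ± 0.45 CPM in wild type. Rbfox3, a marker of mature neurons, went the other way without passing, at 0.57 ± 0.32 CPM in null and 1.05 ± 0.24 CPM in wild type. Map2, the most abundant of the list, had 967 to 999 CPM in null and 1058 to 1101 CPM in wild type without passing. Of the 11 neuronal markers tested, 7 had a positive log2 fold change. Oligodendrocyte lineage markers summed to 1438 to 1519 CPM in null and 1123 to 1612 CPM in wild type, where wild type replicate 3 had the highest sum. Pdgfra averaged 126 ± 12.6 CPM in null and 67.6 ± 86.4 CPM in wild type, but 17.7 CPM in wild type replicates 1 and 2. Olig1, the most abundant of the list, averaged 719 ± 23.8 CPM in null and 666 ± 99.6 CPM in wild type. In wild type replicates 1 and 2 alone it averaged 612 CPM. Astrocyte markers summed to 277 to 298 CPM in null and 227 to 326 CPM in wild type, with wild type replicate 3 again at the top, and edgeR called 0 of 10 oligodendrocyte lineage genes and 0 of 6 tested astrocyte genes, with 1 and 0 at an unadjusted p under 0.05. Markers of microglia, endothelium, and fibroblast and mural cells each summed to under 3.5 CPM in every library, and Itgam, Tmem119 and Cdh5 had no count. In those lists 1 of 6, 1 of 5 and 2 of 6 genes passed the filter on low counts, and 0 were called or had an unadjusted p under 0.05. Among all tested genes 18.6% had an unadjusted p under 0.05 by edgeR. The part of these markers in the values of the members was not tested, and in bulk RNA fewer expressing cells and less RNA per cell cannot be told apart.

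The 6 genes lie on the plus strand of chromosome 18 (RefSeq, GRCm38.p6, whose primary chromosomes are those of mm10). In chromosomal order they start at 37661775 (Pcdhga1, Entrez 93709), 37668927 (Pcdhga2, 93710), 37674335 (Pcdhga3, 93711), 37685237 (Pcdhga4, 93712), 37694375 (Pcdhga5, 93713) and 37707101 (Pcdhga6, 93714). All of them end between 37841870 and 37841873, because they run to the same last exons. Pcdhgb1 starts between Pcdhga3 and Pcdhga4, and Pcdhgb2 between Pcdhga4 and Pcdhga5. In the GENCODE vM21 annotation each member has 4 exons, a first exon of 2545 to 2614 bases of its own and then 2116 to 2119 bases in the exons that the cluster shares.

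How far reads of such similar genes can be told apart was measured on these gene models. The first exons of the 6 members were 67.8% to 72.0% identical to each other over 15 pairs, 61.0% to 70.2% identical to those of Pcdhga7 to Pcdhga12, and 55.6% to 59.1% identical to those of the gamma B genes. Between 99.0% and 100% of the 50-base words in each first exon occur in no transcript of a gene lying elsewhere. The length of 50 bases was chosen for this check, since the read length is not given. Annotated overlap at the locus itself touches Pcdhga1, whose first exon contains the antisense gene Gm37118, and Pcdhga4, whose first exon overlaps an exon of an alternative Pcdhgb1 transcript. The library kit does not mark strand, so sense and antisense reads at Pcdhga1 cannot be separated. With these overlaps counted, 87.7% of the words of Pcdhga1 and 60.5% of those of Pcdhga4 were found in that gene alone.

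Reads in the shared last exons cannot be assigned to 1 gene. How they were counted is not stated, but the deposited counts set a bound for 1 way of counting. The smallest count among the 22 gamma genes was 34 to 39 in the null libraries and 30 to 46 in the wild type libraries. A read credited in full to every gene would be part of that smallest count, so at most that many such reads per library can lie in each member's count. Reads credited to 1 gene or to some of the genes are not bounded in this way. The bound can also be near a member's count, at 30 beside the 35 counts of Pcdhga1 in wild type replicate 3.

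Raw counts of the members ran from 76 to 234 per library in the null group and from 35 to 226 in wild type. Counting error alone, taken as the square root of the count, was 6.54% to 16.9% of a value, and the 35 counts of Pcdhga1 in wild type replicate 3 had the largest. Reads carried no molecular identifiers, so such figures cover counting error only.

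Per kilobase of the deposited gene length, Pcdhga3 had the highest level of the 6 in either genotype, at 2.17 ± 0.16 CPM per kb in null and 1.71 ± 0.22 CPM per kb in wild type (mean ± SD, n = 3 each). Its lowest library lay above the highest library of the next member, Pcdhga4, in each group. In null cells Pcdhga4 followed at 1.31 ± 0.16, Pcdhga6 at 1.26 ± 0.10, Pcdhga5 at 1.14 ± 0.10, Pcdhga1 at 1.13 ± 0.21 and Pcdhga2 at 0.82 ± 0.07 CPM per kb, and from Pcdhga4 down the libraries of each neighbouring pair overlapped. In wild type cells the order was Pcdhga4 at 1.18 ± 0.23, Pcdhga6 at 1.17 ± 0.11, Pcdhga2 at 0.95 ± 0.07, Pcdhga5 at 0.86 ± 0.16 and Pcdhga1 at 0.79 ± 0.03 CPM per kb. There Pcdhga6 and Pcdhga2 were the neighbouring pair below Pcdhga4 whose libraries did not overlap. Pcdhga2 thus ranked last of the 6 in null and above Pcdhga5 and Pcdhga1 in wild type. By their wild type level per length, the members stood between the 14.3rd and 22.9th percentile of the 14207 genes tested. The deposited lengths, 4534 to 4692 bases, are larger than the first exons and span the shared last exons, whose reads cannot be assigned to 1 gene. Levels per length of the members may therefore be understated beside genes without shared exons.

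Pcdhga1, the first gene of the cluster, had 4.04, 5.76 and 5.53 CPM in null replicates 1 to 3, against 3.72, 3.50 and 3.47 CPM in wild type replicates 1 to 3. The groups did not overlap, although null replicate 1 lay close to the wild type libraries. Its mean was 5.11 ± 0.93 CPM in null and 3.56 ± 0.14 CPM in wild type, a log2 fold change of 0.52 ± 0.18 (SE; 95% interval 0.11 to 0.92), with an edgeR adjusted p of 0.211. As a ratio this is 1.43, with an interval of 1.08 to 1.90.

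Pcdhga2 had 3.57, 4.12 and 3.52 CPM in the null libraries, against 4.19, 4.09 and 4.66 CPM in the wild type libraries. Null replicate 2 lay just above wild type replicate 2, so the groups overlapped. The log2 fold change was -0.20 ± 0.16 (SE; 95% interval -0.55 to 0.16; edgeR adjusted p = 0.489), and its sign was negative under every alternative tried.

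Pcdhga3, the most abundant member, had 10.99, 9.60 and 9.90 CPM in the null libraries, against 8.76, 6.86 and 8.43 CPM in the wild type libraries. Each null library was above each wild type library, and wild type replicate 2 was the lowest library. The log2 fold change was 0.35 ± 0.13 (SE; 95% interval 0.04 to 0.65), a ratio of 1.27, with an edgeR adjusted p of 0.233.

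Pcdhga4 had 5.73, 6.75 and 5.35 CPM in the null libraries, against 5.58, 4.18 and 6.25 CPM in the wild type libraries. The groups overlapped, with wild type replicate 3 above null replicates 1 and 3. Its log2 fold change of 0.18 ± 0.18 (SE; 95% interval -0.24 to 0.59; edgeR adjusted p = 0.598) was no larger than its error.

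Pcdhga5 had 5.68, 4.83 and 4.99 CPM in the null libraries, against 4.46, 3.11 and 4.17 CPM in the wild type libraries. The groups did not overlap, and wild type replicate 2 was again the lowest. The log2 fold change was 0.41 ± 0.18 (SE; 95% interval -0.003 to 0.82), a ratio of 1.33, with an edgeR adjusted p of 0.271.

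Pcdhga6 had 5.64, 5.29 and 6.20 CPM in the null libraries, against 4.96, 5.12 and 5.85 CPM in the wild type libraries. Wild type replicate 3 lay above null replicates 1 and 2, so the groups overlapped. The log2 fold change was 0.12 ± 0.14 (SE; 95% interval -0.21 to 0.44; edgeR adjusted p = 0.649), the smallest in size of the 6.

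**Figure D1:**
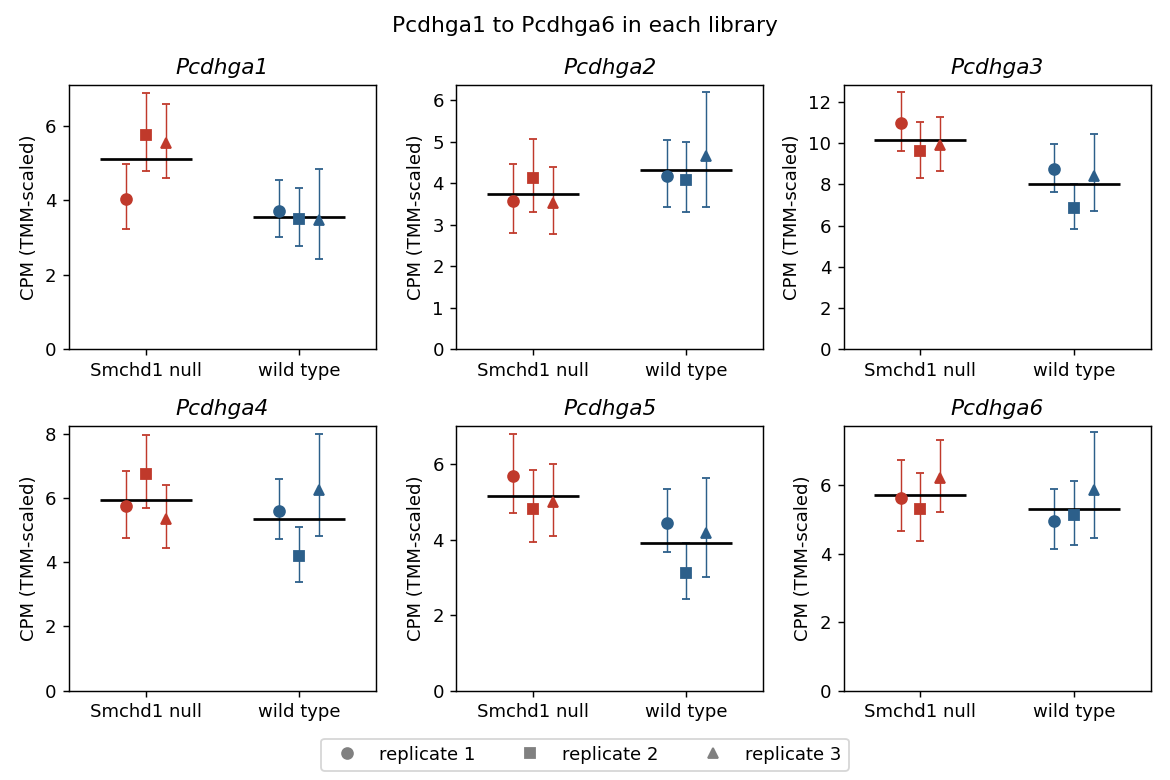
Level of each member in each library, in CPM scaled by TMM, with Smchd1 null libraries left of wild type libraries; symbols mark the replicate, error bars are exact Poisson 95% intervals of the count, and black lines are group means. The null libraries of Pcdhga1, Pcdhga3 and Pcdhga5 lie above every wild type library, and the groups of Pcdhga2, Pcdhga4 and Pcdhga6 overlap.

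Counted together, 0 of the 6 members rose and 0 fell by edgeR, while 0.577% of all 14207 tested genes were called, 0.507% higher and 0.0704% lower in null. DESeq2 also called 0 members, beside 1.27% of all genes higher and 1.56% lower, and limma-voom called 0, beside 0.732% higher and 0.162% lower. With sample quality weights limma-voom called 2 members higher and 0 lower, beside 19% of all genes higher and 17.4% lower. In edgeR 2 of the 6 members (Pcdhga1 and Pcdhga3) had an unadjusted p under 0.05, beside 18.6% of all tested genes. The 3 members whose groups did not overlap compare with 22% of all tested genes. The median log2 fold change of the 6 was 0.26, and that of all tested genes was 0.00.

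Leaving out wild type replicate 3 changed these calls. Without it edgeR called Pcdhga1 (log2 fold change 0.50, adjusted p = 0.0287), Pcdhga3 (0.37, adjusted p = 0.0260) and Pcdhga5 (0.44, adjusted p = 0.0490) higher in null, 3 of 6 members. In that fit 19.7% of all tested genes were called higher and 19.4% lower. The sample quality weights gave 2 of 6 members, Pcdhga1 (adjusted p = 0.0394) and Pcdhga3 (adjusted p = 0.0330), where 19% of all tested genes were called higher. Without wild type replicate 3 the log2 fold changes ran from -0.15 for Pcdhga2 to 0.50 for Pcdhga1.

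Adding the range of sample-name numbers as a term, which leaves wild type replicate 3 as the wild type library to set beside the null libraries, gave no call among the members, where 0.542% of all tested genes were called higher and 0.767% lower. In that fit Pcdhga1 stood at 0.56 (adjusted p = 0.419), Pcdhga3 at 0.27 (adjusted p = 0.600), Pcdhga5 at 0.31 (adjusted p = 0.681) and Pcdhga2 at -0.32 (adjusted p = 0.620) on the log2 scale. Pcdhga4 and Pcdhga6 turned to -0.074 and -0.035. Pcdhga2, Pcdhga4 and Pcdhga6 each had their highest wild type level in wild type replicate 3.

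**Figure D2:**
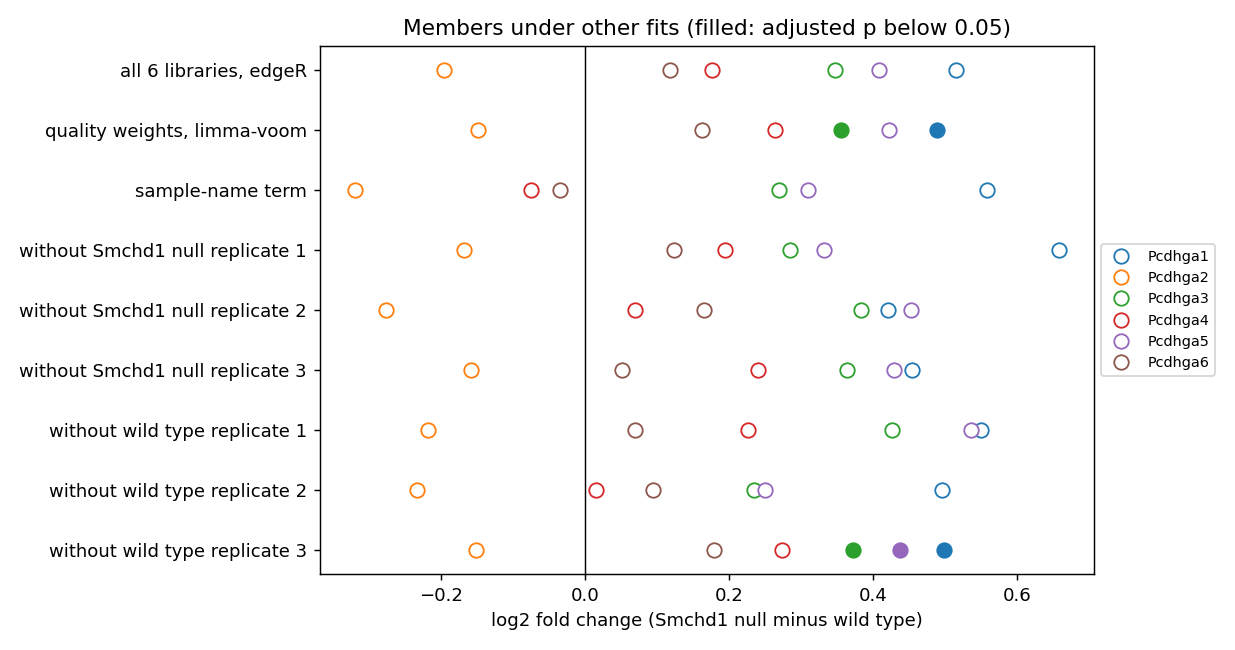
Log2 fold change (Smchd1 null minus wild type) of each member in the fit of all 6 libraries and under 8 other fits, 1 per line, with colour marking the gene and filled points an adjusted p below 0.05. Filled points appear for Pcdhga1 and Pcdhga3 with quality weights, and for Pcdhga1, Pcdhga3 and Pcdhga5 without wild type replicate 3, while Pcdhga2 stays left of 0 on every line.

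Summed over the 6 members, expression was 35.7, 36.4 and 35.5 CPM in the null libraries, against 31.7, 26.9 and 32.8 CPM in the wild type libraries. Every null library lay above every wild type library, and the wild type libraries were more spread. The means were 35.8 ± 0.46 CPM in null and 30.5 ± 3.17 CPM in wild type (mean ± SD, n = 3 each), a log2 ratio of 0.23. Against wild type replicate 3 alone the log2 ratio of the null mean was 0.12, and without wild type replicate 2 it was 0.15.

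Within the sum, the members kept unequal shares. Pcdhga3 took 26.4% to 30.8% of the counts of the 6 in null libraries and 25.6% to 27.7% in wild type libraries. Pcdhga2 took 9.92% to 11.3% in null libraries and 13.2% to 15.2% in wild type libraries, and the groups did not overlap. Pcdhga1 took 14.3 ± 2.53% in null and 11.8 ± 1.22% in wild type (mean ± SD, n = 3 each), with overlapping libraries. Shares of 1 sum are tied to each other, so a lower share of Pcdhga2 and higher shares of other members are not separate measurements.

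Of all counts in the 22 gamma genes, the 6 members held 9.13%, 10.3% and 9.26% in null replicates 1 to 3, against 7.92%, 7.61% and 7.94% in wild type replicates 1 to 3. The means were 9.55 ± 0.61% in null and 7.82 ± 0.18% in wild type. Most gamma counts, 65.9% to 68.5% in null libraries and 69.9% to 71.8% in wild type libraries, came from Pcdhgc3, a C-type gene whose expression in brain is broad where that of the A and B genes varies from cell to cell. With the gamma C genes left out of the denominator, the members held 31.5 ± 1.37% of the counts of the 19 remaining genes in null and 29.3 ± 0.75% in wild type. Those shares overlapped, with null replicate 1 at 29.9% and wild type replicate 1 at 30.04%.

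Pcdhgb1 and Pcdhgb2, the gamma B genes whose first exons lie among those of the members, encode proteins of the same build. Pcdhgb1 had 4.75, 4.17 and 4.99 CPM in the null libraries, against 3.18, 2.90 and 3.57 CPM in the wild type libraries (log2 fold change 0.54 ± 0.16, SE; edgeR adjusted p = 0.176). Pcdhgb2 had 9.58, 9.37 and 8.96 CPM in the null libraries, against 6.78, 6.78 and 7.04 CPM in the wild type libraries (log2 fold change 0.44 ± 0.11; edgeR adjusted p = 0.136). Neither passed. In both genes every null library lay above every wild type library, beside 22% of all tested genes whose groups did not overlap in either direction. From Pcdhga1 to Pcdhga6, 7 of the 8 genes had a positive log2 fold change, with a median of 0.38. In the 14 gamma genes further along the chromosome, 7 were positive, with a median of -0.05. Among all tested genes 50.3% were positive. The difference between these stretches was not tested, and this split was not among the comparisons planned. With the sample-name term, 5 of the 8 genes and 4 of the 14 were positive, beside 50.1% of all tested genes.

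Of all 22 gamma genes, 0 rose and 0 fell by edgeR, beside 0.577% of all tested genes called in either direction. An unadjusted p under 0.05 was seen in 10 of the 22, beside 18.6% of all tested genes. Groups did not overlap in 11 of the 22, beside 22% of all tested genes. Both shares were above those of all tested genes, and the difference was not tested. The genes outside the 6 with the smallest p were Pcdhgb6 (4.47 ± 0.74 CPM in null and 7.82 ± 0.72 CPM in wild type), Pcdhgb4 (9.64 ± 0.57 CPM in null and 6.73 ± 0.36 CPM in wild type) and Pcdhga12 (1.67 ± 0.07 CPM in null and 2.87 ± 0.16 CPM in wild type), with SD and n = 3 each. Their edgeR adjusted p values were 0.0886, 0.117 and 0.121 in that order, and their directions differed, with Pcdhgb4 higher and Pcdhgb6 and Pcdhga12 lower in null.

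**Figure D3:**
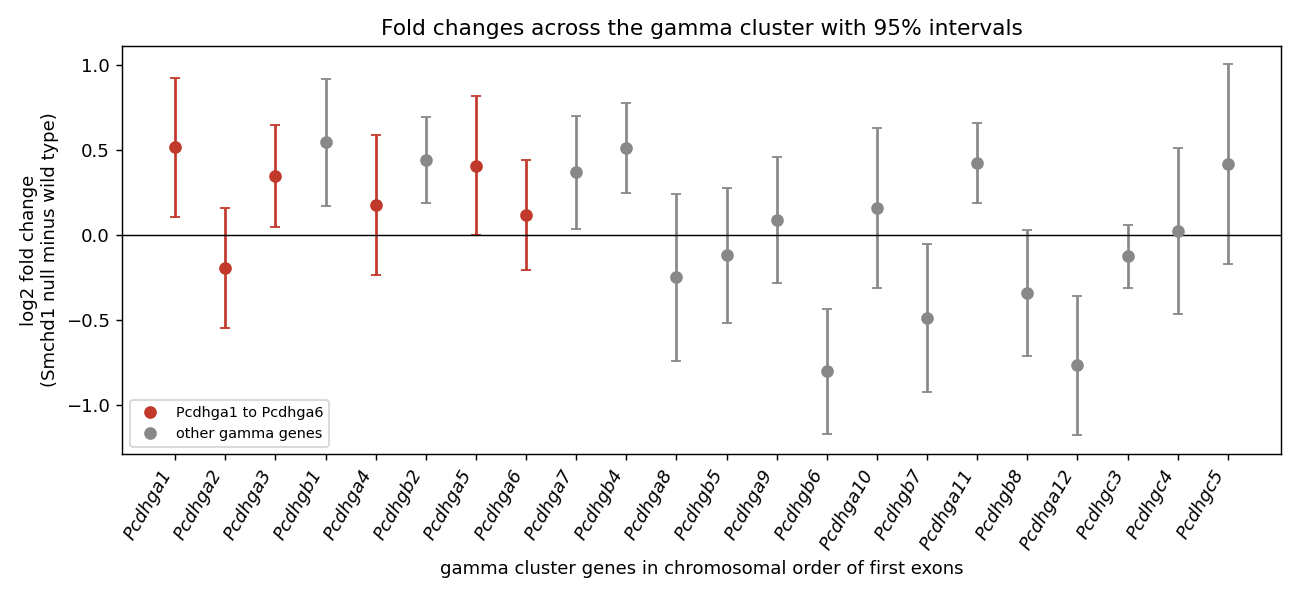
Log2 fold change (Smchd1 null minus wild type) of the 22 gamma genes in chromosomal order, with 95% intervals from the edgeR fit of all 6 libraries, Pcdhga1 to Pcdhga6 in red. Of the 8 genes from Pcdhga1 to Pcdhga6, 7 lie above 0, and of the 14 further genes 7 do, beside 50.3% of all tested genes.

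The alpha and beta clusters lie before the gamma cluster on the same chromosome. In alpha, 9 of 13 tested genes rose and 0 fell, with a median log2 fold change of 4.43. In beta, 17 of 22 rose and 0 fell, with a median of 1.97. Among all tested genes 0.507% were called higher and 0.0704% lower. The 14 alpha genes together had 4.82 to 17.5 CPM in the wild type libraries, against 26.9 to 32.8 CPM for the 6 members. Alpha fold changes thus start from a lower wild type level. The upper ends of the 95% intervals of the members ran from 0.16 for Pcdhga2 to 0.92 for Pcdhga1. Those intervals leave room for a rise of up to 1.90-fold in Pcdhga1 and 1.12-fold in Pcdhga2.

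**Figure D4:**
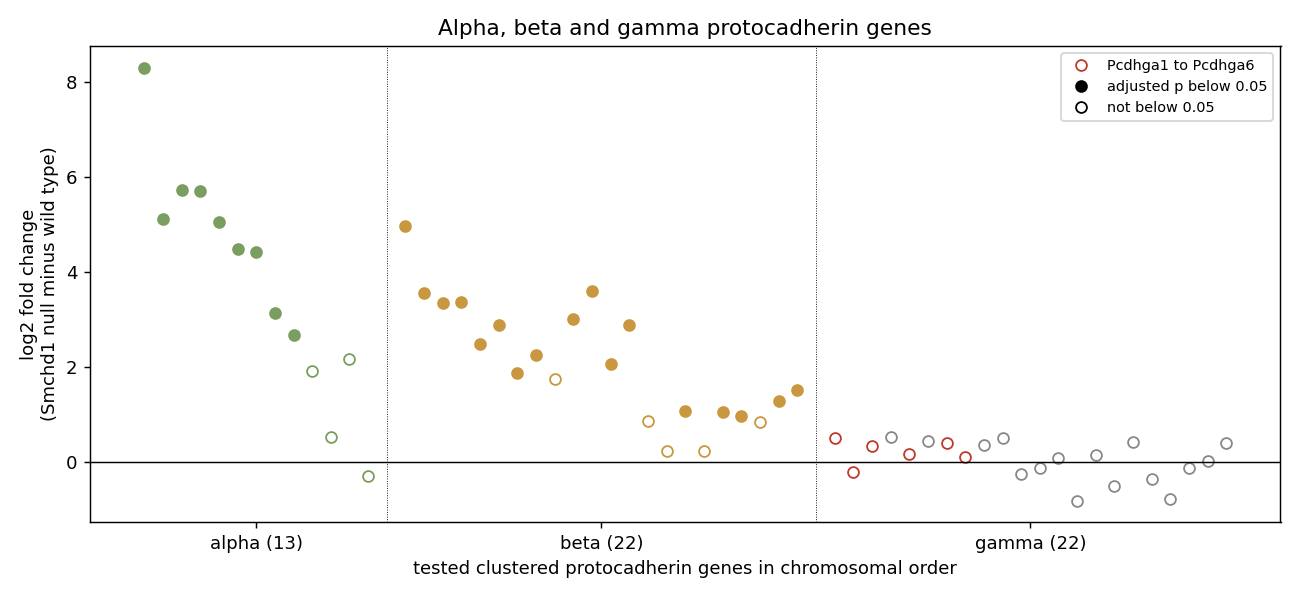
Log2 fold change (Smchd1 null minus wild type) of the tested genes of the alpha (13), beta (22) and gamma (22) clusters in chromosomal order, filled where the adjusted p was below 0.05. The 6 members, in red at the start of the gamma cluster, lie between -0.20 and 0.52 and are open, beside medians of 4.43 in alpha and 1.97 in beta. Alpha genes had lower wild type levels, at 4.82 to 17.5 CPM summed over 14 genes, against 26.9 to 32.8 CPM over the 6 members.

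Genes known to act on clustered protocadherin promoters, a list of 14 with CTCF, cohesin and its regulators, DNA methylation enzymes and other silencing factors, had 0 calls by edgeR and 3 with an unadjusted p under 0.05. The smallest p values were those of Lrif1, which encodes a partner of SMCHD1 (15.0 ± 0.50 CPM in null and 9.45 ± 1.25 CPM in wild type; edgeR adjusted p = 0.0505), and Smc1a, a cohesin subunit gene (320.01 ± 8.18 CPM in null and 377 ± 23.5 CPM in wild type; edgeR adjusted p = 0.172). Of 10 genes whose proteins bind, cleave or signal from gamma protocadherins, 0 were called and 2 had an unadjusted p under 0.05. Both lists lie near the 18.6% of all tested genes with an unadjusted p under 0.05. Nlgn1, a synaptic adhesion gene, stood at 46.6 ± 1.28 CPM in null and 36.5 ± 6.80 CPM in wild type (edgeR adjusted p = 0.201). Prkca, which encodes a kinase that phosphorylates the shared cytoplasmic end, stood at 58.1 ± 1.13 CPM in null and 65.2 ± 3.05 CPM in wild type (edgeR adjusted p = 0.242).

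Log2 CPM of each other tested gene, with 0.1 CPM added, was compared over the 6 libraries with the log2 of the members' summed CPM. The most alike were Slc16a13, Cnnm1, Iba57, Lrrc61 and Kcnt2, with Pearson coefficients of 0.984 to 0.989. Such values are easily reached over 6 libraries in 2 groups that share their scaling, and 473 of 14201 other tested genes had a coefficient above 0.9. Slc16a13 had 8.69, 8.81 and 9.005 CPM in the null libraries, against 6.01, 4.31 and 6.75 CPM in the wild type libraries, so wild type replicate 2 was the lowest there as well. Among clustered protocadherins outside the 6, Pcdha7 (0.955), Pcdhb13 (0.928) and Pcdha9 (0.919) were the most alike. These genes lay near the floor in wild type, where Pcdha7 had 0.23, 0 and 0.50 CPM. The coefficient of Pcdha7 therefore depends on the 0.1 CPM added. Their log2 fold changes were 4.48, 2.89 and 3.14 in that order, beside a log2 ratio of 0.23 for the summed members. The coefficient therefore describes the pattern over libraries and not the size of the change.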

How the data were processed

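RNA was measured in 6 libraries made from 1 µg total RNA each with a kit that does not mark strand, per the labels' protocols. The deposited files hold raw counts and a gene length per Entrez gene. The submitters' processing notes name featureCounts, CASAVA 1.8.2, limma 3.22.0, edgeR 3.8.2 and build mm10; the aligner is not given in the sources used here. Total counts ran from 18608881 to 23253367 per library, and 25275 of 27179 records (93.0%) matched a RefSeq symbol. Counts of the 14207 genes kept by filterByExpr went into edgeR 4.0.16 under R 4.3.3 (TMM scaling, robust quasi-likelihood F-test, genotype as the only term, two-sided, Benjamini-Hochberg over all tested genes, threshold 0.05). Each SE is the log2 fold change divided by the root of F. Alternatives used DESeq2 1.42.0, limma 3.58.1, other scalings and filters, thinning, a replicate block, a sample-name term and leaving out libraries. First exons were compared with Biopython 1.88. No 2 libraries of a group were copies of each other (mean chi-square over genes 7.72 or more per pair).

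The members and gene lists were chosen with earlier results of these data known. Named genes were the 6 members, Smchd1, Pcdhgb1, Pcdhgb2, the 3 other gamma genes and the 2 genes of each further list with the smallest p, and the genes most alike in pattern (5 of all, 3 protocadherins). Marker genes named were chosen after their values were seen.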

Additional observations from a re-analysis of the deposited data

How the results depend on the processing

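The signs of Pcdhga1, Pcdhga3, Pcdhga5 (positive) and Pcdhga2 (negative) held under all 19 alternatives run. Leaving out each library in turn gave log2 fold changes of 0.42 to 0.66 for Pcdhga1, 0.24 to 0.43 for Pcdhga3, 0.25 (without wild type replicate 2) to 0.54 for Pcdhga5, 0.016 (without wild type replicate 2; 0.069 without null replicate 2) to 0.27 for Pcdhga4, 0.051 (without null replicate 3; 0.069 without wild type replicate 1) to 0.18 for Pcdhga6 and -0.28 to -0.15 for Pcdhga2, between 0 and 3 members called higher, 0 to 9 gamma genes called higher and 0 to 3 lower, and 29 to 2857 of all genes called higher and 1 to 2819 lower; the high ends of these counts came without wild type replicate 3. With sample quality weights limma-voom called Pcdhga1 (0.49) and Pcdhga3 (0.36), 2 members in all, with 8 gamma genes higher and 3 lower, and 2700 of all genes higher and 2468 lower. Pcdhga4 turned to -0.074 and Pcdhga6 to -0.035 with the sample-name term, and to -0.076 and -0.036 among the libraries named 11 to 14, where wild type is 1 library assumed to vary like the null libraries and the log2 ratio of the summed members was 0.12. The cause was not tested. A single gamma gene was called lower by DESeq2, without a filter, and among the libraries named 11 to 14 (1 in each). Over all genes, 72 rose and 10 fell in the fit of all 6 libraries, DESeq2 called 180 higher and 221 lower, limma-voom 23 lower, the fit without a filter 163 and 59, the sample-name term 109 lower, and the libraries named 11 to 14 gave 126 and 250. The replicate numbers are not shown to pair the samples (correlations of same-numbered deviations -0.04 to 0.03), and the replicate block gave 48 genes higher, 6 lower and no call among the members, with every sign kept. The share of gamma A and B counts alone was an alternative chosen after seeing the data. Depth limits the members most in wild type replicate 3, with 35 to 85 counts each.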
